A study of Homo sapiens with 192 samples.

Results

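The cyclins described here are 10 genes, CCND1, CCND2, CCND3, CCNE1, CCNE2, CCNA2, CCNB1, CCNB2, CCNF and CCNG2, among the 58243 genes counted in an RNA-Seq study of colorectal cancer (CRC) cell lines. They were chosen by name and mapped through their Ensembl identifiers. No cut on their values was used, but the choice was made with earlier results of these data known. The lines were HT29, LS513, HCT116 and LS174T, all established from human colorectal carcinomas. The study describes HT29 and LS513 as microsatellite stable and HCT116 and LS174T as microsatellite instable, and kept HCT116 in McCoy medium and the other lines in DMEM. Each line was grown in 2D or in 3D culture without any added agent named in the labels, with 3 libraries per line and growth condition, which gave 8 groups and 24 libraries. The study grew spheroids in low attachment plates, and how long the cells used for RNA stayed in 3D is not given in the sources used here. Lines are compared as single lines, so that a difference between them cannot be told apart from a difference in their medium where HCT116 is involved. The labels do not say that the 3 libraries of a group came from separate cultures, and the p-values therefore measure the spread between these libraries, which may be technical.

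Cyclins are the regulatory subunits of cyclin-dependent kinases (CDKs), and their rise and destruction order the cell cycle. D-type cyclins bind CDK4 and CDK6 in G1, E-type cyclins bind CDK2 at the G1/S transition, cyclin A2 works in S phase and G2, and B-type cyclins bind CDK1 to drive mitosis. In colonic tumours CCND1 is known as a target of Wnt and mitogenic signaling, and the transcripts of the A- and B-type cyclins accumulate in dividing cells. RNA from a population of cells does not separate fewer cells in a phase from less RNA per cell, and these cannot be told apart here.

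Library totals were between 18723942 and 34277421 counts, and 3 counts, taken as the floor of detection, corresponded to 0.0875 to 0.160 CPM, counts scaled to the size of the library. Levels are given below in CPM after TMM scaling, which corrects each library for its composition, as the mean ± SD of 3 libraries. The epithelial markers EPCAM, CDH1, KRT8, KRT18 and KRT19 were above the floor in all 24 libraries, whereas CDX1 and CEACAM5 were above it in 18. COL1A2 and CD3E were at 0 in every library, and PTPRC reached at most 0.0688 CPM. Other markers of fibroblasts and endothelium were detected. COL1A1 reached 21.8 CPM and was above the floor in 17 libraries, with means of 14.06 CPM in 2D and 16.05 CPM in 3D in HCT116. PECAM1 reached 2.29 CPM and was above the floor in 8 libraries. VWF reached 0.719 CPM and was above it in 10, with higher levels in 3D in LS513 and HCT116 (adjusted p = 4.6e-04 and 0.030). The part of these markers in the results below was not tested. CD68, the only tested member of a list of 5 leukocyte markers, was higher in 3D in all 4 lines. The summed level of that list was 4.82 to 7.71 CPM in 2D and 11.3 to 15.6 in 3D for HT29, 18.1 to 20.5 and 61.7 to 91.9 for LS513, 9.37 to 13.4 and 36.3 to 47.5 for HCT116, and 2.27 to 3.89 and 5.28 to 6.71 for LS174T, and its part in the results below was not tested. HCT116 3D replicate 1 stood apart by its mitochondrial share, with 6.398% of its counts, against at most 3.48% elsewhere. LS174T 3D replicate 2 deviated most from its group, by a root mean square of 0.368 on the log2 scale against 0.198 to 0.326 in the other libraries.

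All 10 cyclins passed the filter on low counts, CCND2 through LS513 and LS174T alone. Growth in 3D was accompanied by higher mRNA of CCNG2, a cyclin that is known to accumulate in resting cells, and by lower mRNA of 2 to 5 of the other 9 cyclins, depending on the line. CCND3 was called in no line, CCND1 in HT29 alone, and CCND2 rose in LS513 and LS174T. In HT29, 1 cyclin rose and 5 fell at an adjusted p under 0.05, where 21.1% of the 19387 tested genes rose and 19.6% fell. In LS513, 2 rose and 4 fell, against 13.7% and 9.9% of tested genes. In HCT116, 1 rose and 4 fell, against 16.8% and 12.3%. In LS174T, 2 rose and 2 fell, against 13.1% and 9.15%. CCNG2 was the only cyclin called in the same direction in all 4 lines, though its calls in HT29 and LS174T were lost under some alternatives described with its values. In all 4 lines, 3.14% of tested genes were called in the upward direction and 2.46% in the downward one. The median log2 fold change of the members with a measurable fold was, in the order HT29, LS513, HCT116, LS174T, -0.56, -0.26, -0.30 and -0.14, while that over all tested genes lay between 0.00 and 0.02.

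**Figure D1:**
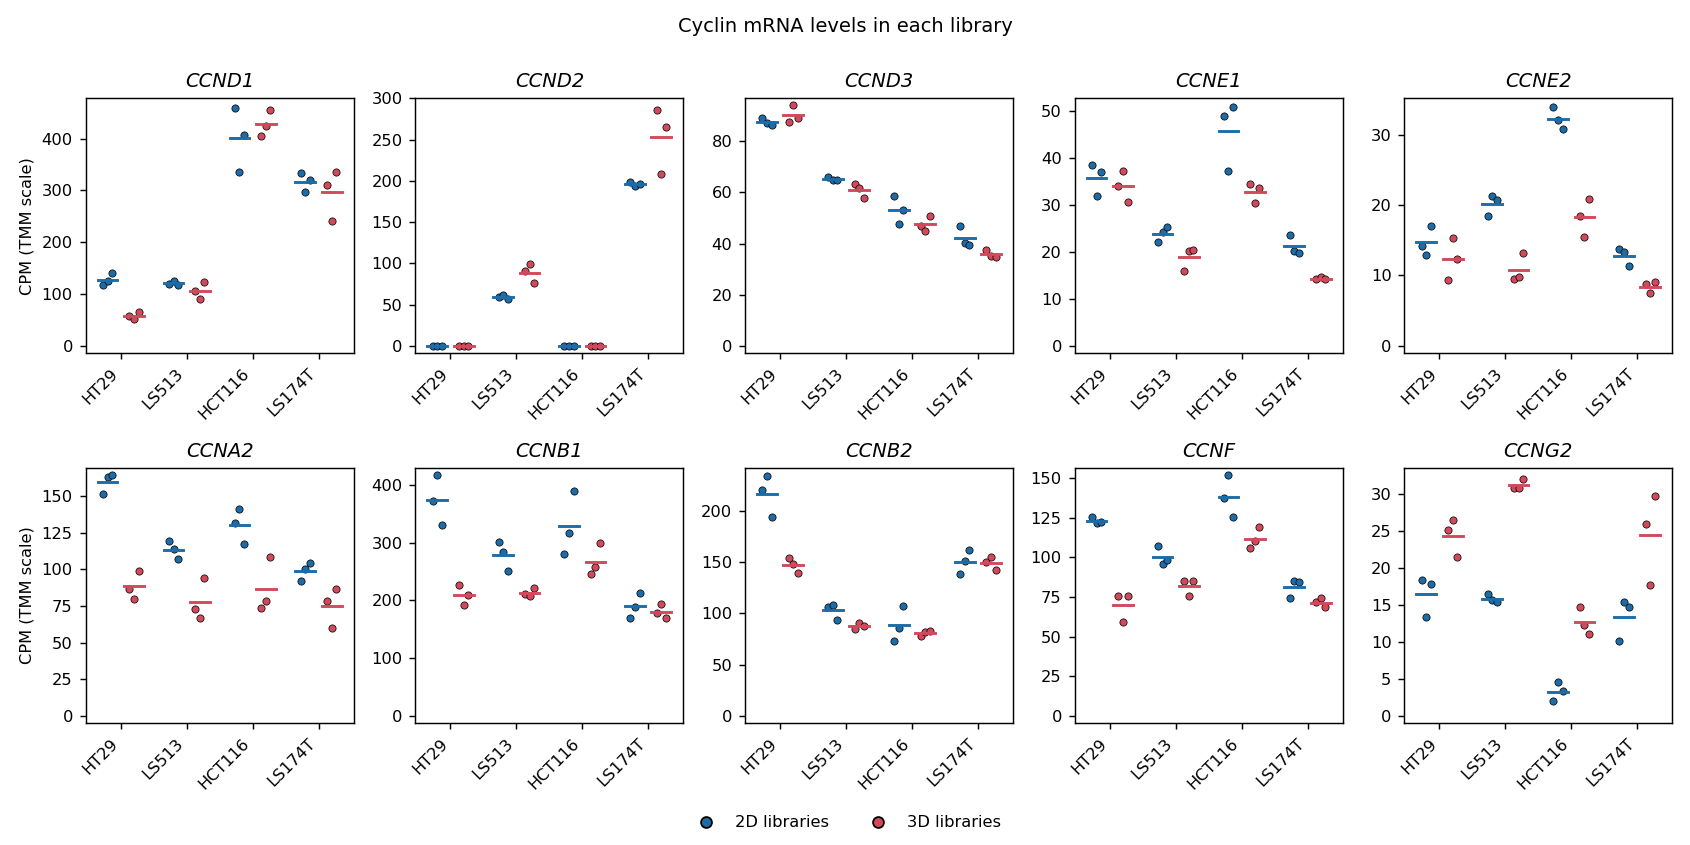
Level of each cyclin in CPM (vertical axis, TMM scale, starting at 0) in the 4 lines (horizontal axis), with 1 point per library, 2D in blue and 3D in red, and a bar at the mean of 3 libraries. The 2D and 3D points of CCND1 in HT29 and of CCNG2 in all 4 lines do not overlap, and CCND2 sits at or near 0 in all libraries of HT29 and HCT116.

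Without HCT116 3D replicate 1, the library with the high mitochondrial share, 4 cyclins were called in HCT116 in place of 5. Without LS174T 3D replicate 2, 3 were called in LS174T in place of 4. When the libraries alone were considered, the 2D and 3D values did not overlap for 1 cyclin in the upward and 5 in the downward direction in HT29, beside 27.3% and 25.6% of tested genes. The numbers were 2 and 7 in LS513 (23.0% and 20.0% of genes), 1 and 4 in HCT116 (22.8% and 17.6%), and 2 and 5 in LS174T (20.9% and 17.6%). An exact permutation test of 3 libraries against 3 cannot go below p = 0.1, so that the calls rest on the spread estimated over all genes.

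CCND1 (ENSG00000110092, chr11:69641087-69654474, GRCh38) encodes cyclin D1, which activates CDK4 and CDK6 in response to mitogens. In HT29 it was measured at 118, 126 and 141 CPM in the 2D libraries and at 56.9, 51.0 and 65.7 CPM in the 3D libraries. The groups were far apart, and the mean of 128 ± 11.6 CPM in 2D stood against 57.9 ± 7.40 CPM in 3D (log2 fold change -1.15, SE 0.13, adjusted p = 5.6e-07). In LS513 the 2D libraries held 120, 125 and 117 CPM and the 3D libraries 105, 90.6 and 122 CPM. These overlapped, with a log2 fold change of -0.18 (SE 0.13, adjusted p = 0.335). In HCT116 the values were 458, 336 and 407 CPM in 2D and 406, 425 and 455 CPM in 3D. The spread between the 2D libraries covered all of the 3D libraries (log2 fold change 0.10, SE 0.13, adjusted p = 0.613). In LS174T the levels of 333, 297 and 320 CPM in 2D and 311, 241 and 336 CPM in 3D also overlapped (log2 fold change -0.10, SE 0.13, adjusted p = 0.624).

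Between lines, CCND1 in 2D was highest in HCT116, followed by LS174T, with a log2 difference of 0.34 between these neighbours (SE 0.13, adjusted p = 0.022). LS174T stood 1.31 above HT29 on the log2 scale (SE 0.13, adjusted p = 4.8e-09), whereas HT29 and LS513 did not differ beyond their spread (log2 difference 0.09, SE 0.13, adjusted p = 0.586). In 3D every neighbour in the order HCT116, LS174T, LS513, HT29 differed, and HT29 was 0.87 below LS513 on the log2 scale (SE 0.13, adjusted p = 2.9e-06). CCND2 passed the filter through the lines that express it and so had to differ between lines. The other 9 cyclins differed as well between the 4 lines in 2D, as 91.7% of tested genes did, and in 3D all except CCNA2 did, again beside 91.7% of genes. For single pairs of lines the share of tested genes that differed in 2D was 60.6% for HT29 with LS513, 68.8% for HT29 with HCT116, 64.6% for HT29 with LS174T, 68.3% for LS513 with HCT116, 57.6% for LS513 with LS174T and 68.3% for HCT116 with LS174T, and in 3D it was 61.9%, 68.5%, 65.5%, 68.5%, 60.9% and 67.2% for the same pairs.

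CCND2 (ENSG00000118971, chr12:4273772-4305350) encodes cyclin D2, another partner of CDK4 and CDK6. It had 0 counts in all libraries of HT29 grown in 2D and in all 6 libraries of HCT116, and 1 count in each of 2 HT29 libraries grown in 3D. No fold between growth conditions can be given for these lines. In LS513 it was measured at 59.2, 61.3 and 57.4 CPM in 2D and at 90.4, 98.9 and 76.6 CPM in 3D. All 3D libraries lay above all 2D libraries, and CCND2 rose with a log2 fold change of 0.58 (SE 0.12, adjusted p = 0.0018). In LS174T the levels were 199, 193 and 196 CPM in 2D and 286, 208 and 265 CPM in 3D. Here too the groups did not overlap, with a log2 fold change of 0.37 (SE 0.12, adjusted p = 0.033). This call was lost without any 1 of the 3 libraries grown in 2D (adjusted p = 0.0778, 0.0940 and 0.0881 for replicates 1, 2 and 3) and without 3D replicate 1 (0.145) or 3D replicate 3 (0.0601).

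Against the floor of 3 counts per library, CCND2 in 2D was at least 361-fold higher in LS513 and at least 1194-fold higher in LS174T than in HT29. The corresponding bounds over HCT116 were 616-fold and 2038-fold. Within the expressing pair, LS174T exceeded LS513 by 1.73 on the log2 scale in 2D (SE 0.12, adjusted p = 7.9e-10) and by 1.52 in 3D (SE 0.12, adjusted p = 3.9e-09). In GENCODE 29, 13.8% of the exonic bases of CCND2 are shared with AC008012.1 on the same strand. Whether the annotation used for counting also held AC008012.1 was not checked. If it did, reads there cannot be assigned to either gene.

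CCND3 (ENSG00000112576, chr6:41934933-42050357), the third D-type cyclin, was not called in any line. HT29 gave 89.1, 87.2 and 86.5 CPM in 2D and 87.6, 94.0 and 89.1 CPM in 3D, which overlapped (log2 fold change 0.04, SE 0.09, adjusted p = 0.740). In LS174T the 3 libraries grown in 3D, at 37.7, 35.0 and 34.9 CPM, lay below those grown in 2D, at 46.9, 40.4 and 39.5 CPM. The log2 fold change was -0.24 (SE 0.09) and the adjusted p = 0.052. This value passed 0.05 without HCT116 2D replicate 1 (0.0479) or replicate 2 (0.0437). In LS513 and HCT116 the log2 fold changes were -0.10 and -0.16 (SE 0.09 each, adjusted p = 0.448 and 0.175). Between lines the level followed the order HT29, LS513, HCT116, LS174T in both growth conditions, from 87.6 to 42.2 CPM in 2D, and each neighbour differed from the next.

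To compare the D-type cyclins with each other, levels were divided by the exonic length of each gene. On this scale the sum of the 3 genes in HT29 went from 41.6 ± 2.19 CPM per kilobase in 2D to 27.5 ± 1.24 in 3D. In the other lines the sums stayed within the spread of the libraries, at 44.5 ± 1.15 and 44.9 ± 1.45 in LS513, 92.1 ± 13.6 and 96.9 ± 5.48 in HCT116, and 100.3 ± 4.72 and 102.9 ± 15.4 in LS174T. The CCND1 share of the sum in HT29 was 61.3% to 66.1% in the 2D libraries and 39.5% to 47.0% in the 3D libraries, while CCND3 made up the rest. In LS513 the share of CCND2 was 18.5% to 18.8% in 2D and 23.3% to 31.9% in 3D, and in LS174T it was 26.5% to 28.3% and 32.9% to 36.1%. CCND1 accounted for 89.5% to 91.9% of the sum in every library of HCT116.

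**Figure D2:**
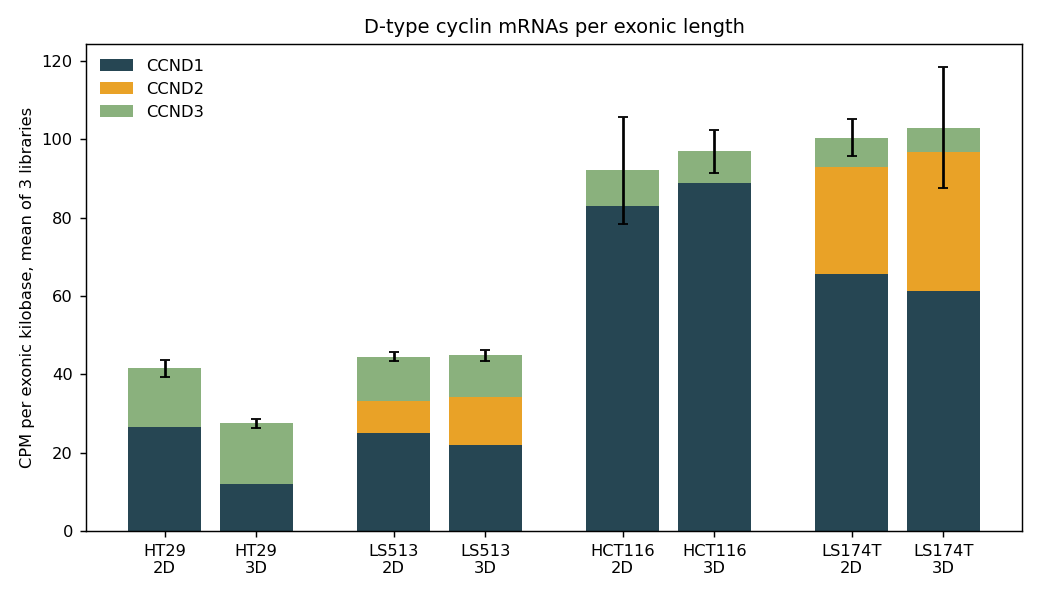
Summed level of the 3 D-type cyclins in CPM per exonic kilobase (vertical axis, from 0) in the 8 groups, with the bar divided by gene (mean of 3 libraries) and the error bar giving the SD of the sum. HT29 is the line in which the bar is lower in 3D, through its CCND1 segment, and the CCND2 segment is present in LS513 and LS174T.

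The shares depended on the length used. With the longest annotated transcript of each gene, an alternative chosen after seeing the data, the CCND1 share in HT29 was 42.3% to 47.5% in 2D and 23.2% to 29.1% in 3D. CCND1 was therefore above CCND3 in HT29 grown in 2D by exonic length and below it by transcript length, whereas CCND3 was above CCND1 in 3D with either. In LS513 grown in 3D the mean of CCND1 was above that of CCND3 by exonic length (22.0 and 10.5 CPM per kilobase) and not by transcript length (24.6 and 25.5).

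CCNE1 (ENSG00000105173, chr19:29811898-29824308) and CCNE2 (ENSG00000175305) encode the cyclins that activate CDK2 for entry into S phase. CCNE1 in HCT116 was measured at 48.9, 37.2 and 51.0 CPM in 2D and at 34.5, 30.5 and 33.6 CPM in 3D. It was lower in every 3D library and fell by 0.48 on the log2 scale (SE 0.12, adjusted p = 0.0051). In LS174T the levels were 23.6, 20.3 and 19.8 CPM in 2D and 14.2, 14.7 and 14.2 CPM in 3D. The 3D libraries were nearly alike, and CCNE1 fell by 0.56 (SE 0.13, adjusted p = 0.0030). LS513 gave 22.2, 24.3 and 25.2 CPM in 2D and 15.9, 20.3 and 20.4 CPM in 3D, without overlap, and a log2 fold change of -0.34 (SE 0.12) that missed the threshold at an adjusted p of 0.0503. It passed the threshold when any 1 of 11 libraries was left out (adjusted p from 0.0323 to 0.0491), 1 of them a library of LS513, 3D replicate 3. In HT29 the 2D and 3D libraries overlapped, at 32.0 to 38.6 and 30.7 to 37.2 CPM (log2 fold change -0.07, SE 0.12, adjusted p = 0.675).

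CCNE2 in LS513 was at 18.5, 21.3 and 20.8 CPM in 2D and at 9.54, 9.77 and 13.2 CPM in 3D. It fell by 0.90 on the log2 scale (SE 0.16, adjusted p = 2.5e-04). In HCT116 the values of 33.9, 32.1 and 30.8 CPM in 2D and 18.4, 15.4 and 20.8 CPM in 3D were equally separate, with a fall by 0.82 (SE 0.16, adjusted p = 4.1e-04). LS174T gave 13.7, 13.4 and 11.4 CPM in 2D and 8.74, 7.51 and 9.06 CPM in 3D, a fall by 0.60 (SE 0.16, adjusted p = 0.011) that was no longer called without LS174T 3D replicate 2 (adjusted p = 0.0564). HT29 gave overlapping values, 12.9 to 17.04 CPM in 2D and 9.41 to 15.4 in 3D (log2 fold change -0.24, SE 0.16, adjusted p = 0.246). GENCODE 29 places INTS8 on the opposite strand over 37% of the exonic bases of CCNE2. The libraries were strand specific, but the strand setting used for counting is not given in the sources used here, so that reads from these 2 genes may have been shared.

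Both E-type cyclins were highest in HCT116 in 2D. CCNE1 followed the order HCT116, HT29, LS513, LS174T, in which the last neighbours did not differ (adjusted p = 0.248). CCNE2 followed the order HCT116, LS513, HT29, LS174T, again with no difference shown between the last neighbours (adjusted p = 0.309). Per exonic kilobase, CCNE1 accounted for 66.3% to 86.2% of the summed E-type mRNA over all libraries.

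The S, G2 and mitotic cyclins were CCNA2 (ENSG00000145386, chr4:121816444-121823933), CCNB1 (ENSG00000134057, chr5:69167010-69178245), CCNB2 (ENSG00000157456, chr15:59105078-59125045) and CCNF (ENSG00000162063, chr16:2429394-2458854). CCNA2 encodes cyclin A2, CCNB1 and CCNB2 the mitotic partners of CDK1, and CCNF an F-box protein that does not activate a CDK but recruits substrates to a ubiquitin ligase in G2. All of them fell in HT29, CCNA2, CCNB1 and CCNF fell in LS513, CCNA2 and CCNF fell in HCT116, and none was called in LS174T.

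Genes of this group are known to be regulated over the cell cycle through a CCAAT box and a cell cycle homology region (CHR). The CCAAT box is bound by NF-Y, and the CHR by the DREAM and MuvB-FOXM1 complexes. For the 4 genes, which fell together in HT29, the last 150 bases before the RefSeq start site are shown. Those of CCNE1, which was not called in HT29 but fell in HCT116 and LS174T, and of CCNG2, which rose, are added. RefSeq promoters on GRCh38.p14 were matched for 7 of the 10 cyclins, CCND1, CCND2 and CCNE2 being the others. GENCODE 29 also lists transcripts that begin upstream of these start sites. Capitals mark the letters CCAAT, or ATTGG where the match is on the other strand, and TTTGAA or TTTAAA, and each sequence reads 5′ to 3′ on the strand of the gene. The stretches are chr5:69167000-69167149 on the plus strand for CCNB1, chr15:59104996-59105145 (plus) for CCNB2, chr16:2429297-2429446 (plus) for CCNF, chr4:121823884-121824033 (minus) for CCNA2, chr19:29811841-29811990 (plus) for CCNE1 and chr4:77157057-77157206 (plus) for CCNG2.
CCNB1: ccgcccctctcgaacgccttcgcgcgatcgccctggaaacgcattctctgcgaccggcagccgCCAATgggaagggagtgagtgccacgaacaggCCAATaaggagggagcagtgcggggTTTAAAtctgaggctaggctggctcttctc
CCNB2: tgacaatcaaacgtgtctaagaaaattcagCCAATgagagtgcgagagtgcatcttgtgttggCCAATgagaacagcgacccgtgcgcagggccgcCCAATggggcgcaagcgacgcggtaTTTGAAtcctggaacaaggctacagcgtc
CCNF: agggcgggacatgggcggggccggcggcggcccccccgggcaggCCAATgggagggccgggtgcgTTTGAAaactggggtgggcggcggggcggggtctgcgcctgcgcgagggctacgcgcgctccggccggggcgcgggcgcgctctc
CCNA2: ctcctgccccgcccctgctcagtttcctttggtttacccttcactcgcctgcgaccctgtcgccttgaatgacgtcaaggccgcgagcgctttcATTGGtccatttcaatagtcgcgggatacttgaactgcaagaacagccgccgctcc
CCNE1: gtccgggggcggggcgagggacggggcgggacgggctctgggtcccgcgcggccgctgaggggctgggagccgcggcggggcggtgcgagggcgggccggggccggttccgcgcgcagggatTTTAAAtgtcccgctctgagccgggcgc
CCNG2: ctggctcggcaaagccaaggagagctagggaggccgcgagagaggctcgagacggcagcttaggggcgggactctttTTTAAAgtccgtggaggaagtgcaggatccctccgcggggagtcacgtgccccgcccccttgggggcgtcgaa

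CCNB1, CCNB2 and CCNF each held at least 2 CCAAT words and a CHR word in the 250 bases before the start site, a combination found in 2.12% of the 35116 promoters of the same length. In CCNB1 the CCAAT words began at positions -87 and -55 and TTTAAA at -30, counted back from the start site. CCNB2 had nearly the same arrangement, with CCAAT at -120, -87 and -54 and TTTGAA at -29, together with CCAAT at -244 and TTTAAA at -193. CCNF held CCAAT at -250, -239, -210 and -106 and TTTGAA at -85. CCNA2 held 1 CCAAT word on the other strand, at -56, and neither TTTGAA nor TTTAAA. Other forms of a CHR were not searched, so its promoter may hold one. CCNE1 and CCNG2 held TTTAAA alone, at -28 and -73. Of all promoters, 32% had a CCAAT word on either strand and 21.9% a CHR word. The E2F words TTTCCCGC, TTTCGCGC, TTTGCCGC and TTTGGCGC, which occurred in 2.79% of promoters, were in none of the windows of the 7 cyclins. CCND3, which was called in no line, has 3 RefSeq promoters, not shown here, of which 2 held a CCAAT word. These are matches of letters in a fixed window, and both strands were searched. Whether the words bear on the changes from 2D to 3D was not tested.

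**Figure D3:**
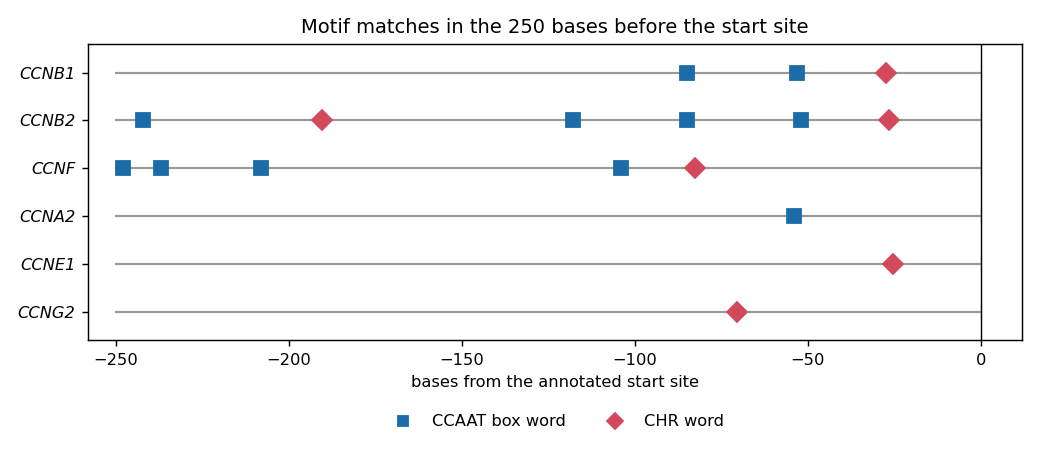
Positions of the CCAAT words (blue squares) and CHR words (red diamonds), on either strand, in the 250 bases before the RefSeq start site (horizontal axis, start site at 0) of 6 cyclins. CCNB1 and CCNB2 share CCAAT words near -87 and -55 and a CHR word near -30.

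CCNA2 in HT29 was measured at 151, 163 and 164 CPM in 2D and at 86.3, 79.8 and 98.6 CPM in 3D. Every 3D library lay far below every 2D library, and CCNA2 fell by 0.85 on the log2 scale (SE 0.14, adjusted p = 6.7e-05). In LS513 the values were 119, 114 and 107 CPM in 2D and 72.8, 66.8 and 94.2 CPM in 3D, a fall by 0.54 (SE 0.14, adjusted p = 0.0077) that was lost without LS513 3D replicate 2 (adjusted p = 0.0616). In HCT116 they were 132, 141 and 117 CPM in 2D and 73.7, 78.4 and 108 CPM in 3D, a fall by 0.58 (SE 0.14, adjusted p = 0.0037). In LS174T, 91.8, 99.9 and 104 CPM in 2D stood against 78.6, 59.9 and 86.5 CPM in 3D. The groups did not overlap there either, but the adjusted p was 0.05002 (log2 fold change -0.39, SE 0.14) and fell between 0.0159 and 0.04995 when any 1 of 5 libraries was left out, 1 of them from LS174T, 3D replicate 3. The growth effect on CCNA2 was not shown to differ between lines (adjusted p of the interaction = 0.372). In 3D its level was not shown to differ between lines either (adjusted p = 0.311), with means from 75.02 to 88.3 CPM. GENCODE 29 has EXOSC9 on the opposite strand over 9.08% of its exonic bases.

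CCNB1 in HT29 was at 373, 418 and 331 CPM in 2D and at 227.5, 192 and 209 CPM in 3D. It fell by 0.84 on the log2 scale (SE 0.12, adjusted p = 9.2e-06). In LS513 the levels were 302, 283 and 251 CPM in 2D and 210, 208 and 222 CPM in 3D, a smaller but separate fall by 0.39 (SE 0.12, adjusted p = 0.019). This call was lost without LS513 2D replicate 1 (adjusted p = 0.0995), 2D replicate 2 (0.0647), 3D replicate 1 (0.0607) or 3D replicate 2 (0.0707). In HCT116 the libraries overlapped, at 281, 317 and 390 CPM in 2D and 245, 258 and 299 CPM in 3D, and the log2 fold change of -0.30 (SE 0.12) had an adjusted p of 0.057. It passed 0.05 without any 1 of 9 libraries (0.0207 to 0.0495), among them HCT116 2D replicate 1 and 3D replicate 3. LS174T gave 169, 188 and 213 CPM in 2D and 178, 193 and 169 CPM in 3D, which overlapped almost wholly (log2 fold change -0.08, SE 0.12, adjusted p = 0.663).

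CCNB2 in HT29 was at 220, 234 and 194 CPM in 2D and at 154, 148 and 139 CPM in 3D, and fell by 0.56 (SE 0.10, adjusted p = 2.2e-04). In LS513 it was at 107, 108 and 93.9 CPM in 2D and 85.0, 90.6 and 87.4 CPM in 3D, without overlap but also without a call (log2 fold change -0.23, SE 0.11, adjusted p = 0.118). The log2 fold changes in HCT116 and LS174T were -0.14 (SE 0.11, adjusted p = 0.361) and -0.01 (SE 0.10, adjusted p = 0.987), with overlapping libraries in both. CCNB2 took a larger part of the summed B-type mRNA per exonic kilobase in HT29 grown in 3D, 37.8% to 41.3%, than in 2D, 33.8% to 35.1%. The same held in LS513, with 26.5% to 28.5% in 3D and 24.4% to 25.9% in 2D. In HCT116 the share was 20.1% to 22.4% in 3D and 19.2% to 20.0% in 2D. In LS174T the libraries overlapped, at 42.3% to 43.6% in 3D and 40.8% to 42.7% in 2D. The level of CCNB2 in 2D was highest in HT29, followed by LS174T, LS513 and HCT116, and the last neighbours in that order did not differ beyond their spread (adjusted p = 0.069).

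CCNF in HT29 was at 126, 121 and 123 CPM in 2D and at 75.5, 59.2 and 75.4 CPM in 3D. The 2D libraries were nearly alike, and CCNF fell by 0.82 on the log2 scale (SE 0.10, adjusted p = 8.5e-07). In LS513 the levels of 107, 96.1 and 98.3 CPM in 2D and 85.1, 75.4 and 84.9 CPM in 3D gave a fall by 0.30 (SE 0.10, adjusted p = 0.026). That call was lost without LS513 2D replicate 1 (adjusted p = 0.122), 3D replicate 1 (0.0501) or 3D replicate 2 (0.154). In HCT116, 137, 152 and 125 CPM in 2D and 106, 110 and 119 CPM in 3D gave a fall by 0.31 (SE 0.09, adjusted p = 0.018). It was lost without HCT116 2D replicate 2 (adjusted p = 0.115), 3D replicate 1 (0.0717) or 3D replicate 2 (0.0537). In LS174T the libraries nearly touched, at 74.244 to 85.1 CPM in 2D and 68.8 to 74.230 CPM in 3D, and are counted above as not overlapping. The log2 fold change was -0.18 (SE 0.10, adjusted p = 0.169).

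CCNG2 (ENSG00000138764, chr4:77157151-77433388) encodes cyclin G2, an atypical cyclin that is known to be induced by FOXO factors when growth signals fail and that opposes proliferation. It rose in every line. In HCT116 it was measured at 1.93, 4.54 and 3.37 CPM in 2D and at 14.7, 12.3 and 11.1 CPM in 3D. The log2 fold change of 1.95 (SE 0.23, adjusted p = 1.4e-06) was the largest among the cyclins, from the lowest 2D level. In LS513 the levels were 16.5, 15.6 and 15.3 CPM in 2D and 30.8, 30.8 and 32.1 CPM in 3D. They hardly varied within a group, and CCNG2 rose by 0.98 on the log2 scale (SE 0.21, adjusted p = 0.0013). In LS174T it was at 10.1, 15.4 and 14.7 CPM in 2D and 26.0, 17.8 and 29.7 CPM in 3D (log2 fold change 0.87, SE 0.21, adjusted p = 0.0051), and this call was lost when the 6 libraries of LS174T were fitted alone (adjusted p = 0.0524). In HT29 it was at 18.4, 13.4 and 17.8 CPM in 2D and 25.1, 26.4 and 21.5 CPM in 3D (log2 fold change 0.56, SE 0.21, adjusted p = 0.034). The HT29 call was lost without 2D replicate 2 (adjusted p = 0.125), 3D replicate 1 (0.0688) or 3D replicate 3 (0.0742). In 2D HCT116 was 2.03 below LS174T on the log2 scale (SE 0.23, adjusted p = 3.7e-08), while HT29, LS513 and LS174T were not shown to differ as neighbours (adjusted p = 0.847 and 0.348).

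**Figure D4:**
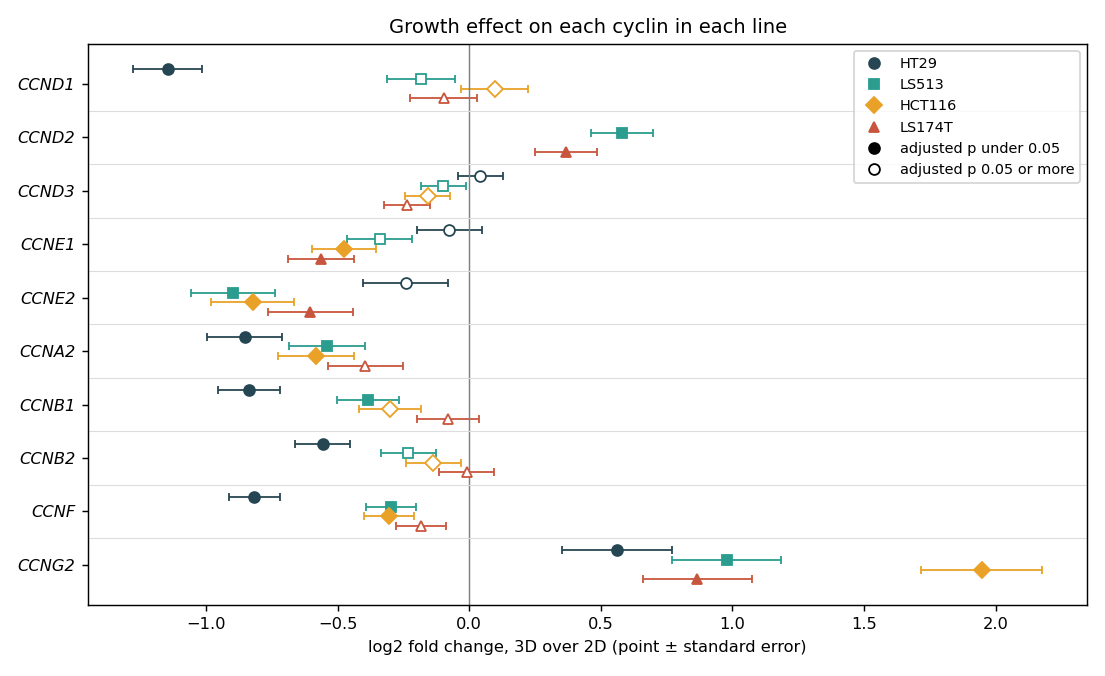
Log2 fold change of 3D over 2D (horizontal axis, point ± SE from the edgeR fit) for each cyclin and line, with filled symbols for an adjusted p under 0.05. CCND1 in HT29 lies apart from the other lines at -1.15, the points of CCNA2, CCNB1, CCNB2 and CCNF reach furthest to the left in HT29, and CCNG2 is right of 0 in all lines.

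Whether the growth effect differed between lines was tested directly. It did for 5 of the 10 cyclins, CCND1 (adjusted p = 9.8e-05), CCNF (0.0058), CCNG2 (0.013), CCNB1 (0.013) and CCNB2 (0.048), where 17.1% of tested genes differed. Between pairs of lines 12.1% of tested genes had a differing effect for HT29 with LS513, 7.76% for HT29 with HCT116, 6.65% for HT29 with LS174T and 4.75% for HCT116 with LS174T. The CCND1 effect in HT29 was lower than in LS513 by a log2 difference of -0.96 (SE 0.18, adjusted p = 8.0e-04), than in HCT116 by -1.24 (SE 0.18, adjusted p = 5.8e-05) and than in LS174T by -1.05 (SE 0.18, adjusted p = 7.2e-04). CCNF also had a lower effect in HT29 than in each other line, by -0.52 against LS513, -0.51 against HCT116 and -0.63 against LS174T (SE 0.13 each, adjusted p = 0.012, 0.018 and 0.0048). For CCNB1 the HT29 effect differed from that in HCT116 (-0.53, SE 0.17, adjusted p = 0.049) and in LS174T (-0.75, SE 0.17, adjusted p = 0.0066), and for CCNB2 from that in LS174T (-0.55, SE 0.15, adjusted p = 0.026). The CCNG2 effect in HCT116 exceeded that in HT29 by 1.39 (SE 0.31, adjusted p = 0.0050) and that in LS174T by 1.08 (SE 0.31, adjusted p = 0.042) on the log2 scale. None of the differences between LS513 and HCT116 or between LS513 and LS174T passed the threshold, where 4.34% and 3.62% of tested genes did, and in edgeR the count of cyclins at an unadjusted p under 0.05 was 1, CCNG2, for the former pair and 0 for the latter. CCNE2, with log2 fold changes from -0.24 in HT29 to -0.90 in LS513, was not shown to differ between lines (adjusted p of the interaction = 0.134), nor was CCNE1 (adjusted p = 0.173).

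The number of cyclins with a differing effect was 2 without HT29 3D replicate 3, and 3 without HT29 2D replicate 1, HT29 2D replicate 2 or HCT116 3D replicate 1. CCND1 remained under an adjusted p of 0.05 in all 28 alternatives run, CCNF and CCNG2 in 26 each, CCNB1 in 25 and CCNB2 in 6.

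For a view of G1 against mitotic cyclins, the mean log2(CPM + 1) of CCNA2, CCNB1, CCNB2 and CCNF was compared in each library with that of CCND1, CCND2, CCND3, CCNE1 and CCNE2. These means describe the chosen members and carry no test. In HT29 the mitotic mean was 7.65 ± 0.07 in 2D and 6.88 ± 0.10 in 3D, and the G1 mean 4.53 ± 0.07 and 4.25 ± 0.07. The difference between both means dropped by 0.49 from 2D to 3D, with libraries that did not overlap (2.97 to 3.26 in 2D and 2.45 to 2.78 in 3D). In LS513 it dropped by 0.18, also without overlap (1.39 to 1.62 and 1.25 to 1.35). In HCT116 and LS174T the libraries overlapped, and the change was -0.07 and 0.05. Both means were lower in 3D in every line, and in LS174T the change of the mitotic mean, -0.17, was smaller than that of the G1 mean, -0.21. Whether the lines differed in this contrast was not tested.

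**Figure D5:**
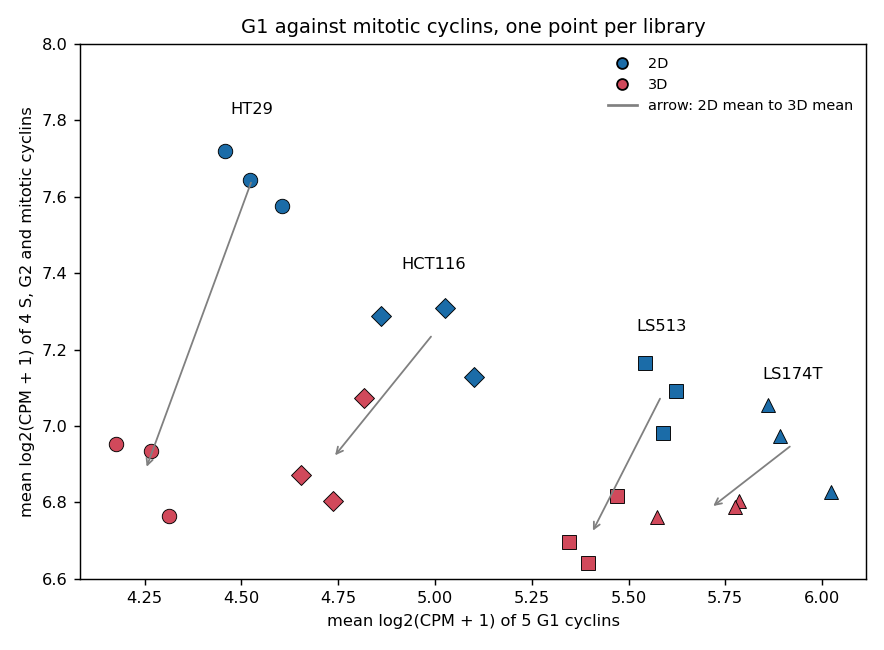
Mean log2(CPM + 1) of the 4 S, G2 and mitotic cyclins (vertical axis) against that of the 5 G1 cyclins (horizontal axis), 1 point per library, with circles for HT29, squares for LS513, diamonds for HCT116 and triangles for LS174T, 2D in blue and 3D in red. Arrows run from the 2D to the 3D mean, and that of HT29 is the steepest, since its mitotic mean went from 7.65 to 6.88.

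The direction of this contrast depended on which G1 cyclins were included. Without CCND2 the change in LS513 was 0.0061 in place of -0.18, and without CCND1 that in HT29 was -0.70 and that in HCT116 0.03. With the log2 ratio of summed CPM it was -0.31, -0.35, -0.32 and -0.16 for HT29, LS513, HCT116 and LS174T. In HCT116 the change was 0.02 without 2D replicate 2 and -0.01 without 3D replicate 1, and in LS174T it was -0.07 without 2D replicate 1 and -0.01 without 3D replicate 2.

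The kinase partners were read beside the cyclins. CDK1, the partner of the B-type cyclins, fell by 0.53 in HT29, 0.54 in LS513 and 0.55 in HCT116 on the log2 scale (SE 0.10 each, adjusted p = 3.5e-04, 6.0e-04 and 3.7e-04), and had a log2 fold change of -0.19 in LS174T (SE 0.10, adjusted p = 0.193). CDK2, the partner of the E-type cyclins and of cyclin A2, fell in all 4 lines, by 0.50, 0.38, 0.31 and 0.42 in the order HT29, LS513, HCT116, LS174T (SE 0.08 each, adjusted p = 5.8e-05, 0.0015, 0.0063 and 9.4e-04). CDK6 fell by 0.94, 0.69 and 0.61 in the first 3 lines (SE 0.18 each, adjusted p = 2.1e-04, 0.0063 and 0.012), with -0.42 in LS174T (SE 0.18, adjusted p = 0.086). CDK4, the other partner of the D-type cyclins, was not called in any line, with log2 fold changes from -0.28 to 0.21.

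Other genes around the cyclins were counted from lists, to be read beside the shares of all tested genes, of which 21.1% rose and 19.6% fell in HT29, 13.7% and 9.9% in LS513, 16.8% and 12.3% in HCT116, and 13.1% and 9.15% in LS174T. Counts and median log2 fold changes are given in the order HT29, LS513, HCT116, LS174T. Of 7 CDK inhibitors, 4, 3, 4 and 3 rose, and 1 fell in each line but LS174T, with medians of 0.25, 0.39, 0.76 and 0.37. CDKN2B, which blocks CDK4 and CDK6, went from 0.919 ± 0.0178 to 7.84 ± 2.56 CPM in LS513 (log2 fold change 3.09, SE 0.26, adjusted p = 1.4e-08). It also rose by 0.79 on the log2 scale in HCT116 (SE 0.23, adjusted p = 0.013), fell by 0.61 in HT29 (SE 0.23, adjusted p = 0.040), and had a log2 fold change of -0.58 in LS174T (SE 0.29, adjusted p = 0.156). CDKN1C rose in HT29, HCT116 and LS174T, with log2 fold changes of 1.84, 1.45 and 1.45 (SE 0.35, 0.18 and 0.21, adjusted p = 2.5e-04, 2.9e-06 and 5.0e-05), and had one of 0.39 in LS513 (adjusted p = 0.130). In HT29 the CDKN1C level was near the floor of detection, at 0.151 ± 0.0359 CPM in 2D and 0.569 ± 0.106 CPM in 3D. Of 13 E2F and pocket protein genes, which control transcription at G1/S, 7, 7, 8 and 5 fell and 1 rose, in HT29, with medians of -0.29, -0.39, -0.44 and -0.34. E2F3 fell in all 4 lines, with log2 fold changes from -0.60 in LS513 to -1.08 in HT29, whereas E2F5 fell in HT29 and LS513 (-0.67 and -0.41) and was not called in HCT116 and LS174T (-0.11 and 0.26). Of 9 genes of mitotic transcription, 4, 5, 6 and 3 fell and 1 rose in HT29 and in HCT116, with medians of -0.40, -0.39, -0.47 and -0.25. MYBL2, a partner of MuvB, had log2 fold changes of -0.49, -0.21, -0.47 and -0.25 and was called in all lines but LS513 (adjusted p = 0.054). FOXM1, an activator of the B-type cyclin genes, fell in all 4 lines, with log2 fold changes of -0.78, -0.39, -0.63 and -0.58 (SE 0.13 each, adjusted p = 6.6e-05, 0.031, 8.7e-04 and 0.0030). In LS174T, FOXM1 was at 252 ± 7.09 CPM in 2D and 168 ± 48.8 CPM in 3D, and CCNB1 and CCNB2 were not called. Whether FOXM1 bears on the changes of these cyclins was not tested.

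Among 12 genes of cyclin ubiquitination, 6, 2, 5 and 1 fell and 1 rose, in HT29, with medians of -0.36, -0.19, -0.12 and -0.04. CDC20, which directs the destruction of B-type cyclins in mitosis, fell by 0.86 in HT29, 0.34 in HCT116 and 0.32 in LS174T (SE 0.12 each, adjusted p = 6.0e-06, 0.031 and 0.04997), and had a log2 fold change of -0.26 in LS513 (adjusted p = 0.107). SKP2, a subunit of a G1/S ubiquitin ligase, fell by 0.57, 0.76 and 0.88 in HT29, LS513 and HCT116 (SE 0.13, 0.13 and 0.14, adjusted p = 0.0019, 2.5e-04 and 4.6e-05), with a log2 fold change of -0.37 in LS174T (adjusted p = 0.051). Of 6 kinases and phosphatases acting on CDKs, 3, 2, 3 and 2 fell, and none, none, 2 and 1 rose, with medians of -0.23, -0.14, -0.18 and -0.20. CDC25A, which activates CDK2, fell in all 4 lines with log2 fold changes from -0.45 to -0.54, and WEE1, which inhibits CDK1, fell in LS513 and HCT116 (-0.24 and -0.43) and was not called in HT29 and LS174T (-0.18 and -0.11). Of 17 other cyclin genes 16 were tested, of which 7, 3, 2 and 1 fell and 1, 1, 2 and 2 rose, with medians of -0.28, -0.08, -0.20 and -0.11. The counts that fell in HCT116 and LS174T, and those that rose in every line, were near or below the shares of all tested genes. CCNI2 rose in HT29 and HCT116 (log2 fold changes 0.83 and 0.93) and was not called in LS513 and LS174T (-0.31 and -0.24). Its mean in HCT116 was low, 0.283 CPM in 2D and 0.540 CPM in 3D. CCNY rose in LS174T (0.46) and was not called in the other lines (-0.18 to 0.15). Of the 3 proliferation markers, 2 fell in every line. TOP2A, a marker of S phase and G2, was lower in all 4 lines (log2 fold changes -1.08, -0.75, -0.99 and -0.58), whereas MKI67 fell by 1.21 in HT29 and 0.92 in LS174T (SE 0.18 each, adjusted p = 2.1e-05 and 0.0012) and had log2 fold changes of -0.48 and -0.45 in LS513 and HCT116 (adjusted p = 0.056 and 0.064).

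Over the 8 group means of log2(CPM + 1), each centred on its own mean, the gene closest to a cyclin among 11658 genes was taken as a description. It was BLMH for CCND1 (root mean square difference 0.22), MUC6 for CCND2 (0.84), FBXO41 for CCND3 (0.08), INPP5B for CCNE1 (0.16), WDCP for CCNE2 (0.15), ZMPSTE24 for CCNA2 (0.07), TOP1 for CCNB1 (0.07), DENND1B for CCNB2 (0.07), EMC1 for CCNF (0.08) and TJP3 for CCNG2 (0.25). CCND2 itself varied more than the other cyclins, by a root mean square of 3.54 about its mean against 0.34 to 0.99.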

How the data were processed

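The authors trimmed the reads with Trim Galore 0.4.1, aligned single reads of 75 bases from strand-specific, polyA-selected libraries with STAR, removed reads that aligned more than once and counted the rest per gene with HTSeq-count 0.5.3. The deposited values are raw counts, with no normalization. The submitters' processing notes name hg19, whereas the study's methods name Ensembl 91, and the positions given here come from GENCODE 29 on GRCh38. There were 191 count tables, 8 technical replicates per library, except for HT29 3D replicate 4 with 7 used here, and they were summed per library.

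The main test was the robust quasi-likelihood fit of edgeR 4.0.16 (R 4.3.3) to all 24 libraries in 8 groups after filterByExpr and TMM, with Benjamini-Hochberg adjusted p-values over 19387 genes. SE is the log2 fold change divided by the square root of its F. In a test of the fit on simulated data, 99 of 200 changed genes were called (49.5%), with 8 false calls. A gene that was not called may therefore still have changed. Other settings tried were DESeq2 1.42.0, its size factors in edgeR, all genes with a count, a replicate block, fewer libraries, and leaving out each library. From each pathway list around the cyclins the 2 genes with the smallest p in any line are named, besides 4 CDKs. The motifs were searched in 250 bases before each start site. Members and lists were chosen with earlier results of these data known. Intervals of detection cover counting error only.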

Additional observations from a re-analysis of the deposited data

Results flagged for a closer look

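For 5 cyclins the change from 2D to 3D differed between the 4 lines by the interaction test of edgeR, which asks whether the growth effects are equal. For CCND1 the adjusted p was 9.83e-05, and it stayed between 1.91e-11 and 0.0037 over 28 alternatives. CCND1 was lower in all 3 HT29 libraries grown in 3D than in any grown in 2D, while the libraries of the other lines overlapped. For CCNF the adjusted p was 0.0058, and its highest value over the alternatives, 0.0581, came without HT29 3D replicate 3. For CCNG2 it was 0.0125, with a range of 9.92e-07 to 0.0710, and CCNG2 was higher in 3D in every line, most in HCT116. For CCNB1 it was 0.0131, with a range of 0.0029 to 0.0770. For CCNB2 it was 0.0481, with a range of 0.0143 to 0.290. None of the causes of these differences was tested.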

How the results depend on the processing

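No cyclin that was called in a line changed direction under any of the alternatives. Of the changes of single cyclins, the size factors of DESeq2 left 37 of 38 on the same side of the threshold, all genes with a count and DESeq2 35 each, and the 6 libraries of the line alone 34. The count called in HT29 was 5 to 6 and in HCT116 4 to 6 over all alternatives. In LS513 it ranged from 3 to 7 when each library was left out, and it was 3 without LS513 3D replicate 2. With the 6 libraries of the line alone, a fit with fewer samples, it was 8 in LS513 and 2 in LS174T. In LS174T it was 6 with DESeq2. The number of cyclins whose effect differed between lines ranged from 2 to 5 when each library was left out. The change of the mitotic over the G1 mean was, with summed CPM, -0.31, -0.35, -0.32 and -0.16 for HT29, LS513, HCT116 and LS174T, without CCND1 -0.70 in HT29 and 0.026 in HCT116, and 0.0061 in LS513 without CCND2. When each library was left out it ranged from -0.56 to -0.40 in HT29, from -0.23 to -0.12 in LS513, from -0.18 to 0.025 in HCT116 (the latter without 2D replicate 2) and from -0.067 to 0.13 in LS174T (the former without 2D replicate 1), being -0.013 in LS174T without 3D replicate 2. The cause was not tested for these changes.

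With a replicate block, the same-numbered 2D and 3D libraries being treated as pairs, 5, 6, 5 and 3 cyclins were called in HT29, LS513, HCT116 and LS174T, and 2 effects differed between lines. The calls of CCNG2 in HT29 (adjusted p = 0.189), CCND2 in LS174T (0.0512) and CCNF in LS513 (0.0550) were lost and that of CCNE1 in LS513 (0.0431) was gained. The numbers were not shown to pair the libraries: the correlation of deviations from the group means over 11 same-numbered pairs was -0.146 to 0.0938 (median -0.0253).

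The floor of 3 counts limits what can be said of CCND2 in HT29 and HCT116.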
